A study of Mus musculus with 4 samples.

Results

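Mitochondrial ribosomal protein genes were followed through osteoclast formation in culture. The members are all genes whose symbol in the array annotation begins with Mrpl or Mrps followed by a digit, each read from the probe set (the group of short probes that reports a transcript) with the highest mean log2 intensity among those named for that gene alone. There were 76 such genes among 18193 named genes, 47 with a large subunit name (Mrpl) and 29 with a small subunit name (Mrps). The RNA came from marrow of C57BL/6 mice aged 8 to 10 weeks, with 1 array for each of 4 stages. Bone marrow macrophages (BMM) had 3 days of M-CSF, the macrophage growth factor, at 100 ng/ml. Pre-osteoclasts (pOC) were mononuclear cells positive for the osteoclast stain TRAP after 2 days with RANKL, the osteoclast-inducing cytokine, at 100 ng/ml, M-CSF still being present. Another 2 days of both cytokines gave multinucleated osteoclasts on plastic (mOCp) or on dentin slices that they resorb (mOCd). The sources used here name no sex, no number of animals and no purity of the mature cultures. No array holds cells kept for the same days in M-CSF alone, so the effects of RANKL cannot be told apart from those of culture time.

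Mitochondria carry ribosomes of their own, which translate the few proteins encoded by mitochondrial DNA, all of them subunits of the respiratory chain and ATP synthase. The RNAs of that ribosome come from mitochondrial DNA, whereas its proteins are made in the cytosol from nuclear genes and imported. The small subunit reads the messenger RNA and the large subunit joins the amino acids. Many members have a counterpart in bacterial ribosomes, and others occur only in mitochondria. Osteoclasts are rich in mitochondria, and the nuclear factors NRF1, GABP (an ETS family factor) and YY1 are known regulators of nuclear genes for mitochondrial proteins.

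Promoters are shown first, and whether their letters have a part in the changes described below was not tested. RefSeq windows (GRCm38.p6) of 250 bases before to 50 after the transcription start were found for 67 of the 76 members. The 5 below run from 170 bases before to 30 after the start. They were chosen, after the search, among those that hold at least 2 matches to the letters searched, printed in capitals. The letters were CCGGAAG for ETS factors, GCGCA followed by any base and GCGC for NRF1, and AAGATGGC for YY1, each on either strand.
Mrpl45, chr11:97315546-97315745, plus strand, NRF1 letters: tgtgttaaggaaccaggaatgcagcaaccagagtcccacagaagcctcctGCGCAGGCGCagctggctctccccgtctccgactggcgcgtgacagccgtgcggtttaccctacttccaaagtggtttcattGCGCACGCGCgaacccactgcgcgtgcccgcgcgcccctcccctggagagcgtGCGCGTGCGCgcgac
Mrpl57, chr14:57826069-57826268, plus strand, NRF1 and ETS letters: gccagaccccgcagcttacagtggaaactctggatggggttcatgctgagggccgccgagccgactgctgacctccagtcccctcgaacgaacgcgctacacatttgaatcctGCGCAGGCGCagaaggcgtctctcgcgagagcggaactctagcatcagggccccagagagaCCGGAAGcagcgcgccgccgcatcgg
Mrps18a, chr17:46110834-46111033, plus strand, ETS and YY1 letters: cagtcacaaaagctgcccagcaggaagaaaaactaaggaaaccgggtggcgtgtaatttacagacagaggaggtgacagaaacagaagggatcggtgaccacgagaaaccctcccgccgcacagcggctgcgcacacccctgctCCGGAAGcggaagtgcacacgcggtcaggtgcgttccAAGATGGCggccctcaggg
Mrps26, chr2:130563587-130563786, plus strand, ETS letters and 2 overlapping NRF1 matches: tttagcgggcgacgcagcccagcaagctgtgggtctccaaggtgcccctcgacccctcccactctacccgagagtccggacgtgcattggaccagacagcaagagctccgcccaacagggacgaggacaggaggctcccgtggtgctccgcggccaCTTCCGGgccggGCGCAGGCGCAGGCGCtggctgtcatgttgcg
Mrps27, chr13:99344616-99344815, plus strand, ETS and YY1 letters: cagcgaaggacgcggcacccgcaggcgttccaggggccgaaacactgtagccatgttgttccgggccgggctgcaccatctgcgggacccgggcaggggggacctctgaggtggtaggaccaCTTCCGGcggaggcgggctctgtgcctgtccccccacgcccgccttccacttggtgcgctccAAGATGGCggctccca

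Values are linear MAS5 intensities, scaled by the authors so that every array has the same trimmed mean. With 1 array a stage there is no replicate, so no test, p-value or standard error is given, and precision is limited by there being 4 arrays in all. The 2-fold rule used below asks for intensities at least 2-fold apart, the brighter of which reached the 75th percentile of its array. That percentile lay between 77.8 and 87.0. All 76 members exceeded the floor, the median intensity of each array (12.7 to 15.8), on all 4 arrays, and 75 exceeded the 75th percentile on all 4, against 29.4% of all named genes. Over BMM, pOC, mOCp and mOCd, osteoclast markers summed to 255.1, 33771.7, 52180.6 and 53526.0. Macrophage markers, all 13 above the floor in BMM, pOC and mOCp, summed to 33203.7, 12071.5, 20750.8 and 16855.7 on the same arrays. Their median log2 ratio to BMM was −3.20 in pOC, −1.90 in mOCp and −3.38 in mOCd, a steeper fall than in the sums. Neutrophil markers summed to 323.5, 841.8, 1886.1 and 968.6, and markers of B, T, NK, erythroid, dendritic, mast, endothelial and stromal cells to at most 283.6 a list on any array. The part of these cells in the results below was not tested, and fewer cells of a type and less RNA per cell cannot be told apart in such samples.

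In pre-osteoclasts nearly the whole set was brighter than in macrophages. Of 76 members 71 had a ratio above 1, and 22 were at least 2-fold higher and 0 lower. Scaling moved the count of 22 to 13 (equal medians) or 34 (bright spike-in controls). Over all genes the higher count moved from 809 to 589 or 1198 under the same scalings. Among 7256 eligible genes, those whose brighter value reached the 75th percentile, 52.8% had a ratio above 1, 11.1% were at least 2-fold higher and 13.2% at least 2-fold lower. The median log2 ratio was 0.68 over members and 0.05 over eligible genes. At 1.5-fold, 49 members were higher and 1 lower, against 22.1% and 22.3% of eligible genes. Both subunits took part: Mrpl genes had a median of 0.65 with 13 of 47 at 2-fold, and Mrps genes 0.76 with 9 of 29.

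Mrps35, a small subunit protein found only in mitochondria, read 131.0 (BMM), 699.0 (pOC), 717.3 (mOCp) and 634.1 (mOCd), and the values of other genes follow in this order. It was 5.34-fold higher in pOC, the highest ratio of the set, and BMM alone was low. Mrps6, the counterpart of bacterial S6 on the small subunit platform, read 210.9, 715.0, 790.4 and 1112.2, a 3.39-fold step from BMM to pOC with the highest value on dentin. A further probe set of Mrps6 had a log2 ratio of 2.06 for that step against 1.76 here. Mrps34, needed for a stable small subunit, read 534.3, 1762.1, 1081.8 and 1018.5, highest in pOC and still above BMM afterwards (3.30-fold in pOC).

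Among large subunit genes Mrpl47, the counterpart of bacterial L29 near the exit of the peptide tunnel, read 303.4, 970.5, 424.2 and 465.0 over BMM, pOC, mOCp and mOCd. It stood 3.20-fold above BMM in pOC and came back toward BMM in the mature cells. A further, dim probe set (22.8 to 58.3) did not share this course, with a log2 ratio of −0.17 between pOC and BMM against 1.68. Mrpl41, which also has a reported role in cell death, read 418.6, 1311.7, 1489.9 and 1377.5, with BMM apart from the other arrays (3.13-fold), and a further probe set gave 1.51 against 1.65. Mrpl38, of the central protuberance of the large subunit, read 145.2, 407.6, 365.3 and 326.8, likewise low in BMM alone. Its 2 further probe sets gave 1.09 and 0.75 for pOC over BMM against 1.49.

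Of the other 16 members at 2-fold, Mrpl15 had the smallest ratio, 2.01-fold. They include Mrpl12, of the stalk that recruits translation factors, at 825.7, 1937.5, 1220.5 and 1275.8, highest in pOC. Mrpl45, which resembles the membrane import protein Tim44 and holds the ribosome to the inner membrane, read 211.4, 511.4, 317.0 and 290.9. Mrpl34 read 289.4, 693.9, 671.2 and 717.9. Mrpl45 was thus well under its pOC value in both mature cultures, and Mrpl34 was not. Mrpl15, Mrpl36, Mrpl37, Mrpl43, Mrpl50, Mrpl52, Mrpl57, Mrps5, Mrps16, Mrps18b, Mrps22, Mrps23 and Mrps25 complete the set. Of the 22, 10 have a single probe set, so no second measurement on the array stands beside them.

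A few members did not follow. Mrpl39, found only in mitochondria, read 1454.3, 931.3, 696.8 and 749.8, the one member at least 1.5-fold lower in pOC. Its further probe set had a log2 ratio of −0.28 for pOC over BMM against −0.64, and −0.05 for mOCp over BMM against −1.06. Mrpl33 read 252.8, 173.8, 185.5 and 173.8, again highest in BMM. Mrpl13 (866.1, 718.3, 823.3 and 845.8), Mrps15 (620.1, 542.2, 440.3 and 339.7) and Mrps18c (823.3, 773.6, 725.5 and 623.7) had pOC values slightly under BMM, with log2 ratios of −0.27, −0.19 and −0.09, all smaller than the disagreement between probe sets given below. Further probe sets were lower in pOC as well, at −0.35 and −0.51 for Mrpl13 and −0.25 for Mrps15, and the −0.51 exceeds that disagreement. For mOCp over BMM those of Mrpl13 gave −0.78 and −0.63 against −0.07.

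**Figure D1:**
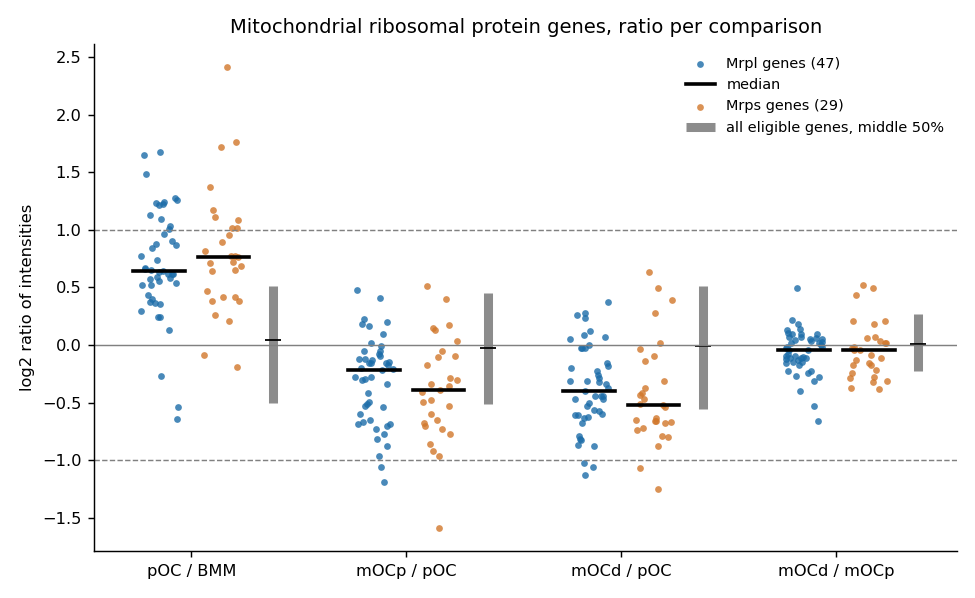
Log2 ratio of intensities (y axis) for the 47 Mrpl genes (blue) and 29 Mrps genes (orange) in 4 comparisons between single arrays (x axis). Black bars are medians, grey bars the middle 50% of eligible genes, and dashed lines mark 2-fold; the members lie mostly above 0 for pOC over BMM, mostly below 0 for both mature arrays over pOC, and near 0 between the mature arrays.

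The 27 members found only in mitochondria had a median log2 ratio of 0.97 between pOC and BMM, with 13 at 2-fold, and the 44 with a bacterial counterpart 0.63, with 8 at 2-fold. This sorting was made from general knowledge after the values were seen, left 5 members unsorted, and the difference was not tested. In the 3 Mrps18 paralogs, relatives of a single bacterial protein, the courses differed. Mrps18a, which despite its name sits in the large subunit, read 381.5, 709.7, 802.2 and 928.2 and was highest on dentin. Mrps18b read 309.2, 667.2, 401.6 and 421.5 and was highest in pOC, while Mrps18c was highest in BMM. Mrps30, also a large subunit protein by place, read 233.3, 383.1, 274.3 and 268.7. Mrps36, since found to belong to a dehydrogenase complex rather than the ribosome, read 339.8, 599.8, 655.4 and 586.4.

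From pre-osteoclasts to osteoclasts on plastic most members were dimmer, by modest amounts. The ratio of mOCp to pOC was below 1 for 62 of 76 members, against 51.2% of 7192 eligible genes. At 2-fold 3 were lower and 0 higher, near or under the 11.4% and 8.8% of eligible genes, so 2-fold calls do not set the members apart on this step. Spike-in scaling gave 9 lower, or 23 without the dim BioB controls. Over all eligible genes the lower count went from 820 to 1116 and 1709 under these scalings. At 1.5-fold 23 of 76 were lower and 0 higher, against 22.4% and 19.8% of eligible genes. The members were thus one-sided, and the share that was lower was somewhat larger than among eligible genes. The median log2 ratio was −0.30 over members and −0.03 over eligible genes. Mrpl genes had a median of −0.21 and Mrps genes −0.39.

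On dentin the picture was similar. The ratio of mOCd to pOC was below 1 for 62 of 76 members, against 50.4% of 7230 eligible genes, with a median of −0.44 over members and −0.01 over eligible genes. At 2-fold 5 were lower and 0 higher (12.3% and 10.8% of eligible genes), and at 1.5-fold 27 were lower and 1 higher (24.1% and 22.2%). The count of 5 became 43 under spike-in scaling and 27 without BioB. Over all eligible genes the lower count went from 886 to 2304 and 1773, so much of this is a shift of every gene. Both mature arrays are set against the same pOC array, so their ratios are not independent. The ratio of pOC to BMM rests on that array too, with the opposite sign. A high reading of this 1 array would give both a rise and a later fall, and its part was not tested. In all, 59 members were lower than pOC on both mature arrays and 10 higher on both. The same split was not counted over all genes, and the mature arrays differ little from each other. Of 76 members 56 had their highest value in pOC, where 23.9% of genes reaching the 75th percentile on any array had theirs.

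Mrps27, a small subunit protein that binds RNA, read 97.8, 166.7, 55.4 and 79.4. It was 3.01-fold lower in mOCp and 2.10-fold lower in mOCd than in pOC, and its mOCp value was the single member value under the 75th percentile of its array. Mrpl19, of the interface between the subunits, read 376.9, 593.8, 285.3 and 270.9, with both mature values under BMM (2.08-fold and 2.19-fold lower than pOC). A second probe set gave log2 ratios of −0.89 and −1.40 against −1.06 and −1.13, and a dim one −0.04 and −0.22. Mrps22, found only in mitochondria, read 439.5, 891.3, 456.2 and 374.0, so that its mature values were back at or under BMM (1.95-fold and 2.38-fold lower than pOC).

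Mrpl50 read 208.2, 493.3, 349.5 and 241.6, lowest of the RANKL arrays on dentin (2.04-fold lower than pOC), and a further probe set gave log2 ratios of −0.66 for mOCp and −0.74 for mOCd over pOC against −0.50 and −1.03. Mrpl47 was 2.29-fold lower in mOCp and 2.09-fold lower in mOCd. Its direction on the step to plastic turned when all its probe sets were averaged, to a log2 ratio of 0.063, and the dim probe set by itself was higher in mOCp (1.35). Mrpl37 was 1.95-fold and Mrps2 1.90-fold lower in mOCp than in pOC, just short of the 2-fold rule.

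Against this, 25 members that were at least 1.5-fold higher in pOC than in BMM were not 1.5-fold lower on either mature array. They were 24 that stayed within 1.5-fold of pOC and Mrps6, which was 1.56-fold higher on dentin than in pOC. Among them were Mrps35, Mrpl34, Mrpl38, Mrpl41, Mrpl43, Mrpl52, Mrps16 and Mrps25. By contrast 19 that were higher in pOC were at least 1.5-fold lower on both mature arrays, such as Mrpl12, Mrpl15, Mrpl45, Mrps5, Mrps22 and Mrps34, and 5 on 1 of them. The single pOC array enters both steps with opposite signs, so choosing members high in pOC favours a later fall. Shares of all genes with these courses were not counted. Mrps9, the counterpart of bacterial S9, read 190.1, 298.6, 426.0 and 421.2 and was higher on both mature arrays than in pOC (1.43-fold and 1.41-fold), on 2 further probe sets as well (log2 ratios from 0.23 to 0.60). Mrpl9 (242.6, 320.2, 423.8 and 383.3) and Mrps21 (389.7, 450.8, 594.9 and 545.0) were also higher on both, by at most 1.32-fold. For mOCp over pOC the further probe sets of Mrpl9 gave −0.19 and 0.19 against 0.40, so its higher value on plastic was not shared by both, and for mOCd over pOC 0.28 and 0.57 against 0.26. Mrpl14 was higher on plastic alone, at 548.3 against 393.6 in pOC and 347.3 on dentin.

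**Figure D2:**
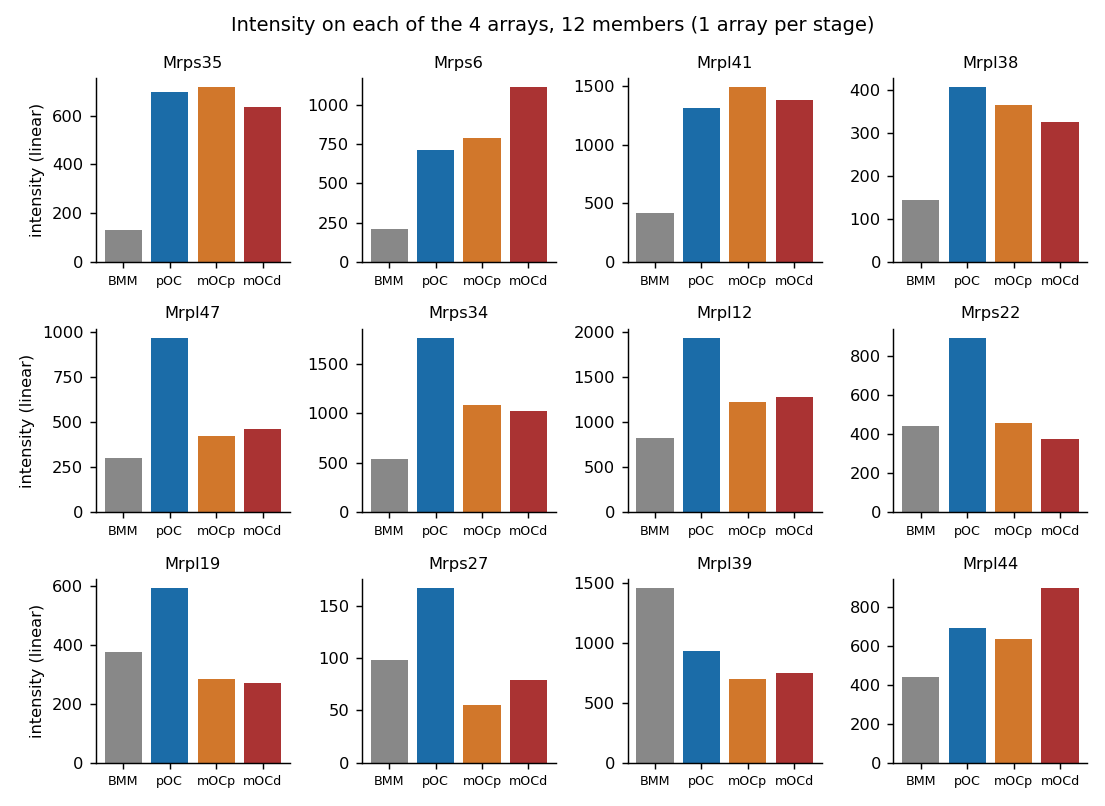
Linear intensity (y axis, from 0, own scale in each panel) of 12 members on the 4 arrays (x axis), 1 array per bar and no error bars because there are no replicates. Mrps35, Mrpl41 and Mrpl38 are low in BMM alone, Mrps34, Mrpl12, Mrps22, Mrpl47, Mrpl19 and Mrps27 are highest in pOC, Mrpl39 is highest in BMM and Mrps6 and Mrpl44 on dentin.

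Differences between the substrates were small as deposited. Between mOCd and mOCp the median log2 ratio of members was −0.04, 0 of 76 reached 2-fold in either direction, and 1, Mrpl14, reached 1.5-fold, lower on dentin. Of members 30 were above 0 and 46 below (51.0% and 49.0% of eligible genes). These became 14 and 62 with equal medians, and 4 and 72 with spike-in scaling (median −0.47), but 34 and 42 without BioB. Eligible genes had medians of −0.09, −0.43 and 0.03 under these scalings. Among 6915 eligible genes 2.15% were at least 2-fold higher on dentin, 2.55% lower, and 9.17% and 7.61% reached 1.5-fold. Ratios ran from −0.66 (Mrpl14) to 0.52 (Mrps27) on the log2 scale. Mrpl44, related to RNase III enzymes, read 444.2, 695.1, 637.9 and 899.6 and was 1.41-fold brighter on dentin than on plastic. Its 3 further probe sets gave log2 ratios of 0.03, 0.00 and 0.22 against 0.50. Mrps6 was 1.41-fold brighter on dentin, and its further probe set had nearly the same log2 ratio (0.53 against 0.49). Mrps31 read 157.4, 210.2, 145.4 and 196.6. Mrpl54 (190.9, 284.5, 259.3 and 196.6), Mrps28 (536.4, 865.8, 710.1 and 543.4) and Mrps14 (1140.8, 1576.9, 1524.2 and 1216.3) were lower on dentin by log2 ratios of −0.40, −0.39 and −0.33. A further probe set of Mrps14 gave 0.01, and that of Mrpl50 −0.07 against −0.53.

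Over the whole course the members ended modestly above the macrophage level. In mOCp 59 of 76 were above BMM (47.6% of 7459 eligible genes), with a median log2 ratio of 0.38 and 11 at least 2-fold higher and 1, Mrpl39, 2-fold lower (16.9% and 19.4% of eligible genes). At 1.5-fold 25 were higher and 2 lower (26.4% and 30.6%). In mOCd 55 were above BMM (48.9% of 7537), with a median of 0.27 that turned to −0.044 under median scaling and −0.16 under spike-in scaling, and 12 at least 2-fold higher and 0 lower (18.8% and 20.3% of eligible genes). Over eligible genes the mOCd median was −0.03 as deposited, −0.36 under median scaling and −0.48 under spike-in scaling. At 1.5-fold 24 were higher and 3 lower in mOCd (28.2% and 30.6%). The shares of higher members at 2-fold are thus near or under the background. Members at 2-fold on both mature arrays included Mrps35 (5.48-fold in mOCp and 4.84-fold in mOCd), Mrps6 (3.75-fold and 5.27-fold), Mrpl41 (3.56-fold and 3.29-fold) and Mrpl10, the base of the stalk, at 256.3, 472.2, 553.8 and 572.5. Mrpl17 (687.6, 1236.6, 1388.2 and 1344.3) reached 2-fold on plastic alone. A dim further probe set of Mrpl17 (18.0 in BMM and 16.9 in mOCp) gave a log2 ratio of −0.09 there against 1.01. Lowest against BMM in mOCd, after Mrpl39, were Mrps15, Mrpl33, Mrpl40 (480.7, 568.2, 343.3 and 310.5) and Mrps12 of the decoding centre (367.2, 478.8, 316.2 and 260.2).

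**Figure D3:**
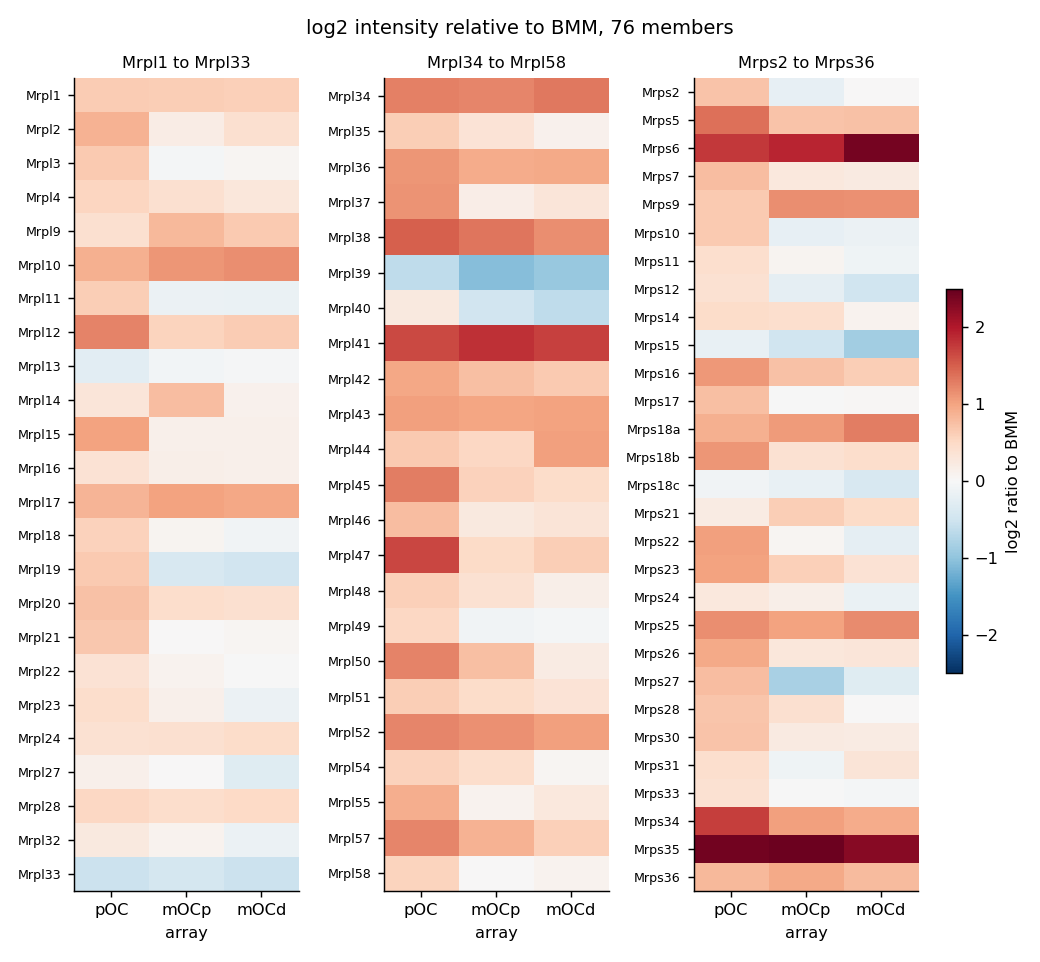
Log2 intensity relative to BMM (colour, red higher and blue lower) of all 76 members (rows, by gene number) on the pOC, mOCp and mOCd arrays (columns). Nearly every row is red in pOC, many pale in the mature columns, and Mrps35, Mrps6, Mrpl41 and Mrpl38 stay red throughout.

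Intensity levels of different probe sets cannot be ranked as transcript amounts, so the range is given as a description of signal. The 5 members with the highest mean log2 intensity were Mrpl51 (1662.2, 2551.2, 2285.6 and 2094.1), Mrpl42 (1015.5, 1983.7, 1720.3 and 1600.4), Mrps14, Mrpl52 and Mrpl12. The 5 with the lowest were Mrps27, Mrps31, Mrpl49 (175.6, 251.9, 166.3 and 169.8), Mrpl33 and Mrps5 (122.4, 317.7, 201.7 and 204.7). The pOC value was the highest of the 4 in both ends of this range, apart from Mrpl33.

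Further probe sets on the same arrays were the only guide to measurement error. For pOC against BMM, 52 further probe sets of 33 members lay above the floor, and 49 of them had the sign of the chosen one. The SD of their disagreement, for a single probe set, was 0.31 on the log2 scale, a guide for single ratios and not for medians over members. For mOCp against pOC 38 of 52 had the same sign (SD 0.39), for mOCd against pOC 40 of 51 (SD 0.34), and for mOCd against mOCp 28 of 51 (SD 0.30). For 32 members such probe sets, where above the floor on all arrays, gave by themselves medians of 0.56, −0.16, −0.18 and −0.04 for the 4 comparisons. Compared within the same genes, the median for mOCp over pOC was −0.18 on further and −0.19 on chosen probe sets, and for mOCd over pOC −0.17 and −0.42. This spread leaves out differences between animals, cultures and arrays.

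Scaling bears on shifts of this size. Spike-in controls from the 6 probe sets that were bright on all arrays were 0.25 dimmer in pOC than in BMM on the log2 scale, and scaling to them gave member medians of 0.93 for pOC over BMM, −0.75 for mOCp over pOC and −0.87 for mOCd over pOC. The medians of all eligible genes moved as well, to 0.30, −0.49 and −0.45. Scaling to equal medians, which lowers every pOC over BMM ratio by 0.19 and every mOCd over pOC ratio by 0.12, gave 0.49, −0.33 and −0.57, and quantile normalization kept the same directions. Eligible genes had −0.15, −0.06 and −0.13 with equal medians. The transferrin receptor control, which compares both ends of a transcript as a sign of RNA quality, had log2 ratios of 3′ to 5′ signal of 1.00, 1.01, 0.84 and 1.70 on the arrays in the same order, while the Gapdh and actin controls differed by at most 0.13 between any pair of arrays. Its part in the mOCd values was not tested.

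From BMM to pOC, and from pOC to each mature array, other genes of mitochondrial translation had medians of the same sign as the members. Against BMM they did not all do so: the assembly factors below had −0.25 in mOCp and −0.06 in mOCd, where members had 0.38 and 0.27. These lists were chosen with earlier results of these arrays known. Of 27 mitoribosome assembly factors with a value above the floor, 3 were at least 2-fold higher and 0 lower in pOC relative to BMM, with a median log2 ratio of 0.54 (−0.45 and −0.57 for mOCp and mOCd over pOC). The 24 bright enough for the 2-fold rule make that count of 3 a share close to the 11.1% of all eligible genes, and 20 of 27 were above 0. They were Malsu1 (307.7, 632.8, 412.0 and 370.5), Ngrn (50.1, 128.6, 138.3 and 153.0) and Mettl15, a ribosomal RNA methyltransferase (74.4, 150.2, 181.6 and 221.5). Fastkd2, an RNA-binding assembly factor, read 335.3, 522.6, 216.7 and 284.5, and Mrm3, another ribosomal RNA methyltransferase, 93.5, 144.3, 67.2 and 80.2, both 2-fold lower in mOCp than in pOC. Tfb1m, which methylates the small subunit RNA, read 170.8, 118.7, 62.8 and 55.4 and was lower at each step. Of 4 mitoribosome proteins with other names Ptcd3 read 251.5, 581.8, 253.6 and 298.0 and Gadd45gip1 318.9, 583.5, 295.2 and 319.0, highest in pOC, but Dap3 read 435.1, 565.5, 857.5 and 706.1 and was highest on plastic.

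Of 14 mitochondrial translation factors 5 were at least 2-fold higher and 0 lower in pOC relative to BMM (median 0.66), and 1 and 2 were 2-fold lower in mOCp and mOCd than in pOC (medians −0.60 and −0.45). On these steps 12, 11 and 12 were bright enough for the rule. Of all eligible genes 11.1% were 2-fold higher in pOC, and 11.4% and 12.3% were 2-fold lower in mOCp and mOCd. The 2 lower counts are thus near the background. Lrpprc, which stabilises mitochondrial messenger RNAs, read 163.4, 539.3, 322.6 and 458.1. Tufm, the elongation factor that delivers aminoacyl-tRNA, read 157.7, 468.2, 251.9 and 325.4. Gfm1, the translocation factor, read 286.2, 671.6, 751.0 and 875.6 and was highest on dentin, unlike most of the list. Among 16 mitochondrial tRNA synthetases, 10 of them bright enough for the rule in pOC against BMM, 2 were 2-fold higher and 0 lower in pOC. They were Tars2 (121.1, 319.2, 175.5 and 178.1) and Wars2 (35.8, 116.4, 84.9 and 62.9), and the medians of the list were 0.57, −0.43 and −0.51. Among 10 genes of mitochondrial transcription and DNA maintenance, 7 of them bright enough, 2 were higher, Tfb2m (173.7, 358.5, 219.4 and 287.1) and the helicase Twnk (35.3, 119.9, 65.5 and 97.3). Polrmt, the mitochondrial RNA polymerase, read 148.5, 252.0, 110.4 and 138.9, and the medians were 0.50, −0.65 and −0.46.

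Subunits of the respiratory chain and ATP synthase, which the mitochondrial ribosome serves in part, parted from the members after the pOC stage. In pOC 23 of 78 measured were 2-fold higher than in BMM and 0 lower (11.1% and 13.2% of eligible genes), with a median of 0.74, close to the 0.68 of members. In mOCp their median over pOC was 0.50 with 75 of 78 above 0, where members had −0.30 with 14 of 76 above 0. On dentin the medians were 0.45 and −0.44. The gap between the medians was 0.80 on plastic and 0.89 on dentin, which a single scaling factor per array cannot alter. The subunits' own median for mOCd over pOC turned to −0.16 under spike-in scaling and was 0.02 without the dim BioB controls. It rests on single arrays and has no test. Of 73 subunits bright enough for the rule, 5 were 2-fold higher in mOCp than in pOC and 0 lower, against 8.8% and 11.4% of eligible genes. The count of 2-fold higher subunits is thus not above the background on this step. Among the 5 were Ndufv3 (1029.6, 1221.8, 2811.4 and 2540.9) and Cox7a2l (714.7, 1309.4, 2787.5 and 2567.7). Against BMM 57 of 78 subunits were 2-fold higher in mOCp and 51 in mOCd (16.9% and 18.8% of eligible genes). The 41 measured cytosolic ribosomal proteins had medians of 0.38, −0.05 and −0.30 for the 3 steps, with 0 at 2-fold in pOC against BMM.

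**Figure D4:**
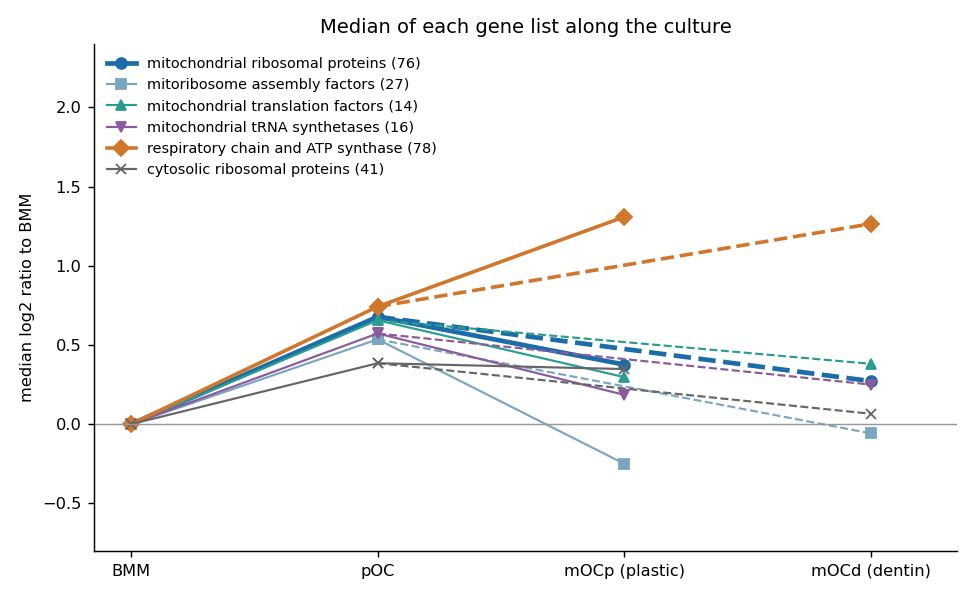
Median log2 ratio to BMM (y axis) of 6 gene lists on the 4 arrays (x axis), solid lines for the course on plastic and dashed lines for dentin, with the number of measured genes in parentheses. Members and subunits of the respiratory chain lie together in pOC (0.68 and 0.74) and apart in mOCp (0.38 and 1.31) and mOCd (0.27 and 1.27).

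Cell division genes were also lower on the steps from pOC to the mature arrays, but between BMM and pOC they leaned the other way from the members. Of 22 measured 0 were 2-fold changed between pOC and BMM, with a median of −0.37 and 20 below 0. Relative to pOC, 19 were 2-fold lower in mOCp and 21 in mOCd (medians −2.16 and −2.36), against 11.4% and 12.3% of eligible genes. Their part in the lower level of members in mature cells was not tested. Of 8 measured regulators of mitochondrial biogenesis 5 were above 0 in pOC over BMM (median 0.21), while 6 were below 0 in mOCp and 7 in mOCd over pOC (medians −0.62 and −0.32). Ppargc1b, a coactivator needed for mitochondrial expansion in osteoclasts, read 27.8, 550.6, 593.1 and 1156.5, highest on dentin. Esrra, a nuclear receptor that works with it, read 129.8, 319.7, 233.4 and 267.3. Myc read 465.1, 532.0, 303.7 and 224.0, and Gabpb1, a GABP subunit, 144.2, 189.1, 99.5 and 78.8, both highest in pOC. Yy1 read 1010.2, 929.4, 570.9 and 555.7, Gabpa 257.2, 216.9, 150.5 and 177.5, and Nrf1 87.8, 61.2, 77.1 and 49.3, each highest in BMM. Ppargc1a lay under the floor on all 4 arrays.

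In the promoters the ETS letters occurred in 25 of 67 members (37.3%), against 9.93% of 27025 genes with a RefSeq window and 25.7% of the 4448 of these that exceeded the 75th percentile on all 4 arrays. The NRF1 letters occurred in 12 members (17.9%), against 5.19% and 14.7%. The YY1 letters occurred in 12 members (17.9%), against 3.19% and 6.72%. The E-box letters CACGTG, which MYC and related factors bind, occurred in 5 members (7.46%), against 8.09% and 13.5%. A shorter NRF1 form, GCATGCGC, which can overlap the longer one, was in 8 members, 4 of which hold both. Of the members 41 of 67 (61.2%) held ETS, NRF1 or YY1 letters, against 40.9% of bright genes. The letters were also frequent in related lists: the share with any of them was 67.6% in cytosolic ribosomal proteins (48.6% for ETS) and 54.5% in subunits of the respiratory chain and ATP synthase (22.7% for NRF1). Median G+C content was 58.0% in members, 61.7% in bright genes and 52.8% in all.

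Medians with and without the letters were close in pOC against BMM, except for the E-box. Members with the ETS letters had a median log2 ratio of 0.67 between pOC and BMM and those without 0.68. For the NRF1 letters the medians were 0.65 and 0.72, and for the YY1 letters 0.69 and 0.67. The 5 members with the E-box letters had 0.87 and the others 0.66. For mOCp over pOC the medians were −0.34 with and −0.30 without ETS letters, −0.14 and −0.34 for NRF1, and −0.31 and −0.30 for YY1. For mOCd over pOC the NRF1 medians were −0.25 with and −0.47 without. None of these differences was tested. Among the promoters shown, Mrpl45, Mrpl57 and Mrps26 belong to genes highest in pOC, Mrps18a to a gene highest on dentin, and Mrps27 to the gene with the lowest ratio of mOCp to pOC. A match is a run of letters, not evidence of binding.

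Another trait was the neighbour. In 25 of 67 members (37.3%) a gene on the opposite strand started within 1000 bases, facing away, against 12.2% of all genes with a window, 22.1% of bright genes and 28.8% of respiratory chain and ATP synthase subunits. Mrpl46 and Mrps11 are such a pair, with 42 bases between their starts, and Mrpl46 read 278.9, 475.6, 328.4 and 350.0 and Mrps11 188.6, 251.1, 198.2 and 175.3, both highest in pOC. Mrpl43 (545.7, 1116.3, 1077.4 and 1093.2) starts 116 bases from Twnk, and Mrps27 108 bases from Ptcd2, a mitochondrial RNA-binding protein that read 195.5, 496.3, 290.5 and 314.9. Mrpl18 (666.6, 999.6, 701.3 and 623.3) starts 238 bases from Tcp1, a chaperonin subunit (2393.0, 3311.1, 1643.9 and 1623.3), and Mrpl47 308 bases from Ndufb5, a complex I subunit (959.7, 1877.2, 2645.3 and 2679.7). Twnk, Ptcd2 and Tcp1 were highest in pOC, like the members beside them, while Ndufb5 was highest on dentin and Mrpl47 in pOC. Psma2, beside Mrpl32, was also highest in pOC, but most partners above the floor were not. Klc4 and Fau were highest on plastic, and Tmem63b, Hira, Pnpla7 and Gga3 on dentin. Eme1, Ncapd2, Ppp1r10 and Helq were highest in BMM. Over 18 partners that are no members and lay above the floor on all arrays, 13 had a ratio of pOC to BMM above 1 (median 0.38, against 0.69 for the members beside them). From pOC to mOCp 10 of 18 were lower, with a median of −0.08 against −0.55. Of eligible genes 52.8% were above 1 on the first of these steps (median 0.05). On the second 51.2% were lower (median −0.03), so there the partners were near the background.

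**Figure D5:**
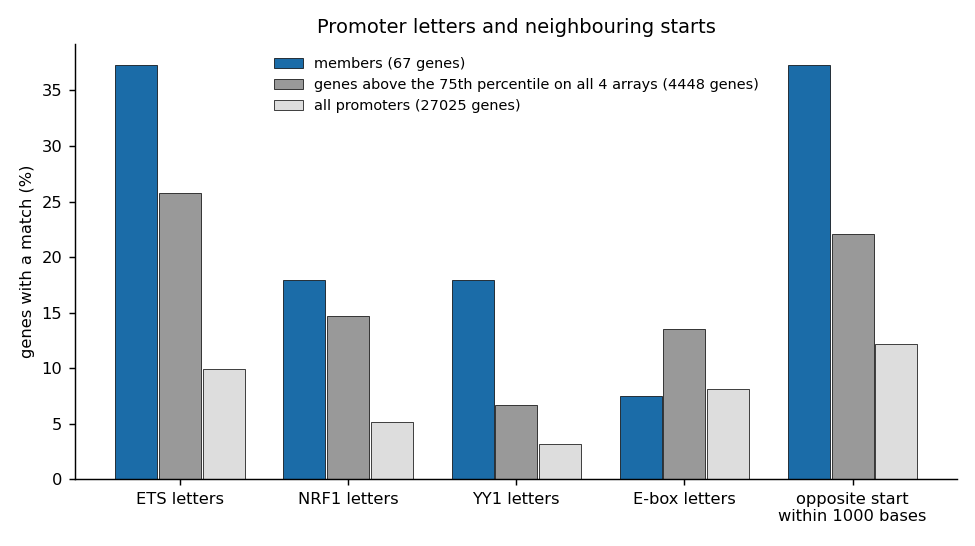
Percent of genes (y axis) whose RefSeq promoter window holds each run of letters, or that have an opposite start within 1000 bases (x axis), for 67 members, bright genes and all genes with a window. Members exceed both of these larger groups for ETS, NRF1 and YY1 letters and for opposite starts, by least for NRF1 among bright genes (17.9% against 14.7%), and not for E-box letters; cytosolic ribosomal proteins, not plotted, have more ETS (48.6%) and respiratory chain subunits more NRF1 letters (22.7%).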

How the data were processed

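RNA of the 4 cultures was measured on 1 single-channel array each. The authors deposited 1 linear intensity for each probe set on each array. The tool was MAS5, per the submitters' processing notes, its version and settings being not given in the sources used here. Trimmed of 2% at both ends, the deposited intensities averaged 100.0 on all 4 arrays, so a difference in total mRNA between stages is removed. Of 45101 probe sets 64 were controls, which were left out. Genes were named through the platform annotation, and all 76 members matched a RefSeq gene of GRCm38.p6 by identifier. Members held 156 probe sets (1 to 8 each). Another 4 probe sets name a member pattern beside a second gene and were not used, which leaves Mrpl30 and Mrpl53 not analysed here. Before log2, intensities lower than an array's 50th percentile (controls left out) were raised to it, which touched 0 member values. Each gene is read from its probe set with the highest mean log2.

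The ratios, counts and medians were computed in Python 3.11.15 with pandas 2.3.3, and the functions were tested on simulated data. The members and lists were chosen with earlier results of these data known. Genes named singly were all members at 2-fold in any comparison, the 5 highest and 5 lowest ratios of each comparison, the 5 highest and lowest mean intensities, members with probe sets of opposite sign more than 1 apart, and a few of each other list at 2-fold. Other list genes (regulators, Dap3, Gadd45gip1, Polrmt, Tfb1m, neighbours) and other members were named after their values were seen. Alternatives were scaling, floor, choice of probe sets and thresholds.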

Additional observations from a re-analysis of the deposited data

How the results depend on the processing

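Each comparison rests on 2 arrays, so no alternative replaces replication, and no replicate could be left out. No paired analysis was possible because each stage has 1 array. The 3 floor alternatives, and the lower brightness limit, changed no count of members by over 1.5 times. Medians of members kept their sign under all alternatives in every comparison except mOCd against BMM.

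With median scaling the counts were 13 higher for pOC against BMM, 4 higher and 2 lower for mOCp against BMM, and 3 higher and 2 lower for mOCd against BMM, whose median was −0.044. With spike-in scaling as planned, in which the BioB probe sets lie under the floor, members lower numbered 9 for mOCp against pOC, 43 for mOCd against pOC (median −1.06) and 1 for mOCd against mOCp (median −0.47), and for mOCd against BMM 3 were higher and 3 lower (median −0.16). Spike-in scaling without BioB, chosen after seeing the data, gave 34 higher for pOC against BMM, 23 lower for mOCp against pOC (median −0.75), 27 lower for mOCd against pOC (median −0.87), 5 higher and 2 lower for mOCp against BMM, and 6 higher and 2 lower for mOCd against BMM. Quantile normalization gave 1 lower for mOCd against BMM. The mean over probe sets gave 1 lower for mOCp against pOC, 3 lower for mOCd against pOC and 0 lower for mOCp against BMM, and turned Mrpl47 for mOCp against pOC to 0.063. Without suffixed probe sets, which left 62 members, 7 were higher and 0 lower for mOCp against BMM. At 1.5-fold the counts were 49 higher and 1 lower for pOC against BMM, 23 lower for mOCp against pOC, 1 higher and 27 lower for mOCd against pOC, 1 lower for mOCd against mOCp, 25 higher and 2 lower for mOCp against BMM, and 24 higher and 3 lower for mOCd against BMM. Further probe sets alone, also chosen after seeing the data, gave medians from −0.18 to 0.56 with no change of sign. Scaling also moved the split over all eligible genes: for pOC against BMM 809 were higher and 956 lower as deposited, 589 and 1216 with median scaling and 1067 and 766 with spike-in scaling, and for mOCd against pOC 779 and 886 as deposited and 310 and 2304 with spike-in scaling. Apart from the shifts that scaling adds to every gene, the causes were not tested.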
